A study of Rattus norvegicus with 8 samples.

Results

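The transcripts of 10 genes for antioxidant enzymes other than the glutathione transferases were examined in a rat cell line with inducible mutant huntingtin. The genes were Nqo1, Txnrd1, Prdx1, Gclc, Gclm, Hmox1, Sod1, Sod2, Cat and Gpx1. The members were all probe sets that the array's annotation table assigns to exactly 1 of these symbols, which gave 21 of the 8799 probe sets on the array, for 10 of its 4737 genes with a single symbol. Of these, 19 passed the low-signal filter described with the processing and 2 did not. Nqo1, Txnrd1, Hmox1, Gclm, Sod1, Cat and Gpx1 had several probe sets, and Gclc, Sod2 and Prdx1 had 1 each.

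Samples came from the PC12 line Htt14A2.5. PC12 cells descend from a rat phaeochromocytoma, a tumour of the adrenal medulla, and per the labels this derivative stably carries an inducible, truncated mutant form of exon 1 of the human huntingtin gene. The titles mark 4 samples of this line with the inducer PA and 4 without it; the free-text descriptions spell PA out as ponasterone, a steroid, and give 48 h of induction. All 8 samples therefore carry the transgene, and the induced samples differ from the others in both the inducer and the induced protein, which cannot be told apart here. These descriptions are the same for every sample, uninduced ones included, so the groups rest on the titles. The sources used here do not give the promoter or receptor that drives the transgene, whether the uninduced samples received a vehicle, or whether the replicates were separate cultures. The p-values measure only the spread between these samples, which may be technical. The level of the human transgene was not analysed here.

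The enzymes belong to several linked defences. Superoxide dismutases turn superoxide into hydrogen peroxide, which catalase, glutathione peroxidases and peroxiredoxins then break down. Glutathione and thioredoxin supply the electrons for peroxidases and peroxiredoxins, and NADPH regenerates both. The transcription factor NRF2, held back by KEAP1 in unstressed cells, raises many of these genes in oxidative stress through antioxidant response elements, short DNA motifs that hold the core TGACNNNGC. NQO1, HMOX1, TXNRD1, GCLC, GCLM and PRDX1 are textbook NRF2 targets in mammals.

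Every sample had its own array, scaled by the authors to a common level, and the median signal of an array lay between 97.5 and 134.9. Any 2 arrays correlated across probe sets at a Spearman rho of 0.945 to 0.967; probe sets are no independent replicates. The second principal component of the tested probe sets separated the groups, at 9.73 to 22.1 in induced and -19.3 to -12.5 in uninduced samples, while the first did not. As a measure of background, the 95th percentile of 38 control probe sets was 102 to 137 on induced and 128 to 183 on uninduced arrays. As measures of RNA quality, the 3' over 5' signals of 3 controls overlapped between the groups. On the log2 scale, that of Gapdh was 0.39 to 0.56 in induced and 0.20 to 0.50 in uninduced samples. That of hexokinase was 0.50 to 1.14 in induced and 0.87 to 1.37 in uninduced samples. For beta-actin it was -0.67 to 0.57 in induced samples, with replicate 3 lowest, and 0.08 to 0.57 in uninduced samples. Of 14 marker genes of PC12 and chromaffin cells 12 were on the array, and 7 lay above the background controls on all 8 arrays, among them the granin Chgb (9331 to 13494). Th, which encodes tyrosine hydroxylase, read 32.5 to 164.1 and Dbh, which encodes dopamine beta-hydroxylase, 2.4 to 16.8, so these defining markers of catecholamine cells were not above background on every array. Markers of leukocytes (0 of 4), Schwann cells and glia (0 of 2) and adrenal cortex (0 of 3) were not above background on every array, and of fibroblast markers Col1a1 and Col3a1 were. Postn, Lum, Lyz2, Cd74 and all 3 adrenal cortex markers were below the low-signal filter and were not tested between the groups. None of the tested markers of other cell types passed. Of the 12 markers of PC12 and chromaffin cells, Dbh, Ddc and Slc18a2 were below the filter and 3 of the tested ones passed. The receptor tyrosine kinase Ret (0.96 on the log2 scale, induced minus uninduced, adjusted p = 0.00412) and the growth cone protein Gap43 (0.61, adjusted p = 0.0118) were higher in induced samples. The transcription factor Phox2a (-0.70, adjusted p = 0.000484) was lower, by the limma fit described with the members. Their part in the members' differences was not tested.

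Of the 19 tested probe sets, 1 rose after induction and none fell. The test was limma, a linear model fitted across all probe sets to log2 of the signal plus 7, with a threshold of 0.05 on the Benjamini-Hochberg adjusted p. Of all 6129 tested probe sets 7.06% were called, 4.1% higher and 2.97% lower. The probe set that rose was J02679_s_at, for the quinone reductase Nqo1. At an unadjusted p under 0.05 there were 4 member probe sets, or 21.1%, beside 18% of all tested probe sets. By either threshold the members' share was near that of the whole table. The signals of induced and uninduced samples did not overlap in 1 of the 19 (5.26%), against 13.6% of all tested probe sets. The median log2 difference (induced minus uninduced) was 0.08 over the 19 and -0.05 over all tested, and the median size without sign was 0.17 and 0.21. In 11 of the 19 the difference was above 0, and in 8 below; over all tested probe sets 43.4% were above 0.

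**Figure D1:**
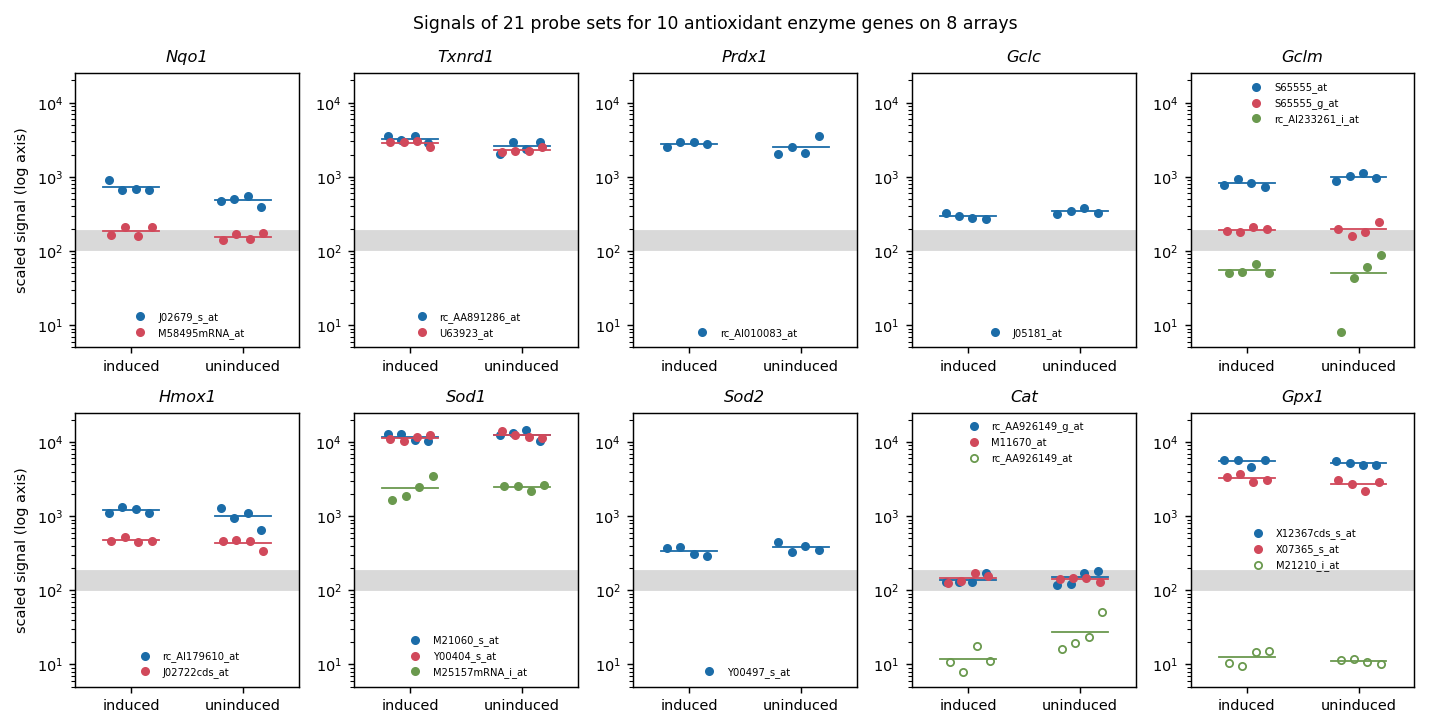
Scaled signal (log axis) of each of the 21 probe sets in the 4 induced (left) and 4 uninduced (right) samples of each gene's panel, with points for arrays in replicate order and lines for group means. Open points mark the 2 probe sets below the low-signal filter, and the grey band spans the 95th percentile of the background controls over the 8 arrays (102 to 183). The groups are apart without overlap in 1 tested probe set, that of Nqo1 in blue.

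The upstream sequences of 4 genes are shown because Nqo1 was the gene with a call, and its window can be set beside those of 3 other NRF2 targets that were not called, 1 of them without a match and the others with one. They are the 250 bases before the annotated start, from RefSeq on build GRCr8, 5′ to 3′ on the gene's strand, in lower case. Capitals mark matches on either strand to TGACNNNGC, the core of the antioxidant response element, or to TGANTCA, the site of AP-1 factors; the motifs can overlap. Nqo1 lies on the minus strand at chr19:52220268-52220517, Gclc on the plus strand at chr8:87510226-87510475, Gclm on the plus strand at chr2:213031885-213032134 and Prdx1 on the plus strand at chr5:135383656-135383905.
Nqo1: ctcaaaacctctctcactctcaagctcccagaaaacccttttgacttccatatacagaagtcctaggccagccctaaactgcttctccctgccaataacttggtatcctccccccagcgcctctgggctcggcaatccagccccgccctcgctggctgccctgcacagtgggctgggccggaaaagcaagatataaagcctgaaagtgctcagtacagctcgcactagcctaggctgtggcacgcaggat
Gclc: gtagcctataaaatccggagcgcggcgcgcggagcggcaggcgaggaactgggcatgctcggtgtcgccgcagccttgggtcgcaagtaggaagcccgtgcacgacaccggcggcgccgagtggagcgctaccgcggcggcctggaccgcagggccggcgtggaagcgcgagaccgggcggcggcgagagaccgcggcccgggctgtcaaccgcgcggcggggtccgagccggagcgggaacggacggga
Gclm: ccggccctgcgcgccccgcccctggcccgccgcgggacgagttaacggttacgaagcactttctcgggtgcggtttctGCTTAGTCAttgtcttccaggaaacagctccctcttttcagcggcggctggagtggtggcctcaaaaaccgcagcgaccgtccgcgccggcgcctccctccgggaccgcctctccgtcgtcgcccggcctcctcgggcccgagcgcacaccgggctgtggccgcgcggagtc
Prdx1: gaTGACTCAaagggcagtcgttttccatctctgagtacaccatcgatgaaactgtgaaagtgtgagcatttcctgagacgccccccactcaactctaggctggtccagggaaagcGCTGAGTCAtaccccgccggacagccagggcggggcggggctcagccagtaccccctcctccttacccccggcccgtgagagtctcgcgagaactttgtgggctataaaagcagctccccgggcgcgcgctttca
The Nqo1 and Gclc windows held neither motif. Gclm held 1 match to the antioxidant core, at position -172 from the start. Prdx1 held 1 at position -135, which overlaps 1 of its 2 matches to TGANTCA. Windows were available for 9 of the 10 genes, with none for Hmox1. Windows of Gclm, Prdx1, Sod2 and 1 of the 2 given for Txnrd1 held the antioxidant core, which stood in 10.1% of all 33469 windows of the same length. TGANTCA stood in 6.34% of them. A match of letters is a description and not a site, and a window without one says nothing about elements farther away. Of the 5 genes without a match to the antioxidant core in these windows (Nqo1, Gclc, Sod1, Cat and Gpx1) 1 was called. Of the 4 genes with a match 0 were, so most genes of both kinds were not called. With 1 gene called, this split cannot show whether calls go with the motif.

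Nqo1 encodes NAD(P)H quinone dehydrogenase 1, a flavoenzyme that reduces quinones by 2 electrons at a time and so keeps them from forming radicals. Probe set J02679_s_at read 904, 662.5, 684.2 and 671.4 in induced replicates 1 to 4, against 475.7, 504.9, 548.9 and 392.7 in uninduced replicates 1 to 4. Every induced sample lay above every uninduced one, and induced replicate 1 stood well above the other induced samples. The means were 731 ± 116 in induced and 481 ± 65.8 in uninduced samples (SD, n = 4 each), a log2 difference of 0.60 ± 0.15 (standard error of the fit), or 1.51-fold with a 95% interval from 1.21 to 1.88 (limma adjusted p = 0.0271). By p this was rank 347 of the 6129. The call was lost without induced replicate 1 (0.49, adjusted p = 0.0794), and without uninduced replicates 1, 2 or 4 (adjusted p = 0.0640, 0.0572 and 0.0623). Median centring of the arrays (0.63, adjusted p = 0.155), a fit without the intensity trend (adjusted p = 0.0766) and leaving out replicate 2 of both groups (0.66, adjusted p = 0.0972) also ended it.

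The second Nqo1 probe set, M58495mRNA_at, did not pass. Its signals were 165.6, 209, 157.6 and 211.3 in induced samples, against 139.7, 167.4, 145.9 and 173.6 in uninduced samples. These values lie near the background controls, and the groups overlapped. The log2 difference was 0.23 ± 0.19 (limma adjusted p = 0.604), with a 95% interval of 0.88 to 1.56-fold. The responses of the 2 Nqo1 probe sets differed by 0.36 on the log2 scale, which an exact two-sided permutation test over the 8 samples did not separate from 0 (p = 0.229, adjusted p = 0.786 over 11 pairs).

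Txnrd1 encodes the cytosolic thioredoxin reductase, a selenoenzyme that passes electrons from NADPH to thioredoxin. It came nearest to the threshold after Nqo1, with similar differences on both probe sets. U63923_at read 2999.9, 2950.1, 3064.5 and 2550.1 in induced samples, against 2156.8, 2218.6, 2260.7 and 2553.7 in uninduced samples. The groups overlapped only through replicate 4 of each, whose signals were almost equal. The log2 difference was 0.33 ± 0.09, or 1.26-fold with a 95% interval from 1.09 to 1.45 (limma adjusted p = 0.0577, unadjusted p = 0.0044). It passed when replicate 4 was left out of the induced (0.39, adjusted p = 0.0273) or of the uninduced samples (0.38, adjusted p = 0.0322), and when only probe sets at or above the 50th percentile of mean signal were tested (adjusted p = 0.0483). It missed the threshold in the other 15 of 18 alternatives, with an adjusted p of up to 0.328.

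rc_AA891286_at, the other Txnrd1 probe set, read 3564.5, 3120.1, 3583.3 and 2892.7 in induced samples, against 2007.8, 2929.9, 2411.5 and 2975.1 in uninduced samples. Here 3 induced samples lay above all uninduced ones, and the uninduced samples were widely spread. The difference was 0.36 ± 0.13 (limma adjusted p = 0.152, unadjusted p = 0.0181), and the responses of the 2 Txnrd1 probe sets differed by 0.03 (exact permutation p = 0.83, adjusted p = 0.971). The 95% interval ran from 1.05 to 1.57-fold.

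Prdx1 encodes a cytosolic peroxiredoxin, an abundant thiol peroxidase that thioredoxin reduces. Its single probe set read 2509.4, 2923.1, 2947.6 and 2801.9 in induced samples, against 2028.2, 2545.9, 2088.5 and 3533.8 in uninduced samples. All induced values fell inside the uninduced range, which uninduced replicate 4 stretched upwards. The difference was 0.17 ± 0.16 (limma adjusted p = 0.665), with a 95% interval of 0.89 to 1.42-fold. Leaving out 1 sample moved it between 0.069 (without uninduced replicate 1, adjusted p = 0.907) and 0.34 (without uninduced replicate 4, adjusted p = 0.0964).

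The enzyme that makes glutathione's precursor dipeptide is glutamate-cysteine ligase, and Gclc and Gclm encode its catalytic and its modifier subunit. Neither passed the test in either direction. Gclc (J05181_at) read 326.1, 294.5, 282 and 268.3 in induced samples, against 319.9, 348.2, 380.9 and 321.2 in uninduced samples. Of the induced samples 3 lay below all uninduced ones, and the log2 difference was -0.22 ± 0.14 (limma adjusted p = 0.454; 95% interval 0.69 to 1.06-fold).

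Gclm had 3 probe sets with differences on both sides of 0. S65555_at read 775.3, 922.1, 822.6 and 737.1 in induced samples, against 883, 1036.5, 1128.8 and 959.7 in uninduced samples. Again 3 induced samples lay below all uninduced ones. The difference was -0.30 ± 0.12 (limma adjusted p = 0.188, unadjusted p = 0.0250; 95% interval 0.68 to 0.97-fold). S65555_g_at, named for the same sequence, read 186.6, 181.3, 213.8 and 197.1 in induced samples, against 199.4, 161.3, 181.8 and 244.6 in uninduced samples, with a difference of -0.0016 ± 0.18. rc_AI233261_i_at was under the background controls on all 8 arrays, with uninduced replicate 1 lowest at 8.1; its difference was 0.38 ± 0.52, and -0.17 without that sample. Of these 3, S65555_at alone lay well above the background controls, and the exact permutation test separated the responses of no pair (p of 0.20 or more).

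Hmox1 encodes inducible haem oxygenase, which opens haem to biliverdin, iron and carbon monoxide and is often read as a marker of oxidative stress. Neither of its probe sets passed. rc_AI179610_at read 1107.4, 1309.1, 1265.2 and 1115.2 in induced samples, against 1303, 944.9, 1111 and 644.8 in uninduced samples. J02722cds_at read 468.6, 521.8, 448.6 and 467.4 in induced samples, against 457, 472.4, 458 and 337.4 in uninduced samples. On both, uninduced replicate 4 had the lowest signal of all 8 samples and the other samples overlapped. The log2 differences were 0.30 ± 0.18 (limma adjusted p = 0.435) and 0.15 ± 0.14 (adjusted p = 0.657), and without uninduced replicate 4 they were 0.11 and 0.04, the lowest of the fits without 1 sample, which reached 0.44 and 0.20. The 95% intervals reached 1.62-fold and 1.37-fold.

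Sod1 encodes the cytosolic copper-zinc superoxide dismutase and Sod2 the mitochondrial manganese enzyme. Sod1 had 3 probe sets, and the differences of all 3 were small. M21060_s_at read 12988.6, 12859.2, 10642 and 10482.3 in induced samples, against 12604.2, 13120.7, 14333.9 and 10178.6 in uninduced samples. Y00404_s_at read 10995.6, 10404.1, 11588 and 12573.9 in induced samples, against 13931.1, 12483.8, 11633 and 11213.9 in uninduced samples. The groups overlapped widely on both. The differences were -0.09 ± 0.12 and -0.11 ± 0.09 (limma adjusted p = 0.774 and 0.621), with 95% intervals of 0.78 to 1.12-fold and 0.80 to 1.07-fold. Without 1 sample they ranged from -0.19 to -0.026 and from -0.16 to -0.050.

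M25157mRNA_i_at, the third Sod1 probe set, spread more among the induced samples (1643.5, 1895.2, 2482.8 and 3533.4) than among the uninduced ones (2569.2, 2540.3, 2219.3 and 2664.1). Its coefficient of variation was 35.2% in induced and 7.74% in uninduced samples, and its difference was -0.12 ± 0.19 (limma adjusted p = 0.831). Sod2 (Y00497_s_at) read 368, 385.6, 305.9 and 289.2 in induced samples, against 449.1, 329, 393.8 and 353.8 in uninduced samples. These overlapped, with a difference of -0.17 ± 0.16 (adjusted p = 0.639; 95% interval 0.70 to 1.12-fold), which was -0.094 without uninduced replicate 1 and -0.31 without replicate 2 of both groups.

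Cat encodes catalase, the haem enzyme of peroxisomes that splits hydrogen peroxide. Its signals were at the level of the background controls, so these arrays say little about it. M11670_at read 124.9, 131.7, 171.4 and 156.8 in induced samples, against 142.2, 144.4, 145 and 128.4 in uninduced samples. rc_AA926149_g_at read 128.6, 129.4, 130.7 and 170.3 in induced samples, against 119, 123.1, 170.8 and 183.4 in uninduced samples. The first exceeded the control percentile on 5 and the second on 6 of the 8 arrays, and the groups overlapped on both. Their differences were 0.05 ± 0.20 (limma adjusted p = 0.943) and -0.07 ± 0.22 (adjusted p = 0.927). The third probe set, rc_AA926149_at, was below the filter at 8 to 17.5 in induced and 16.4 to 50.7 in uninduced samples and was not tested.

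Gpx1 encodes the main cytosolic glutathione peroxidase, a selenoenzyme. X12367cds_s_at read 5792.1, 5691.1, 4631.7 and 5753.3 in induced samples, against 5551, 5210.8, 4916.7 and 4884.9 in uninduced samples. Of the induced samples 3 lay above all uninduced ones and replicate 3 lay below them all. The difference was 0.08 ± 0.09 (limma adjusted p = 0.736; 95% interval 0.92 to 1.22-fold), and 0.16 without induced replicate 3 (adjusted p = 0.391). X07365_s_at read 3333.9, 3653.9, 2856.9 and 3044.9 in induced samples, against 3120.5, 2741.4, 2162.9 and 2926.3 in uninduced samples. These overlapped, with a difference of 0.24 ± 0.12 (adjusted p = 0.340; 95% interval 0.98 to 1.42-fold), and 0.13 without uninduced replicate 3 (adjusted p = 0.641). M21210_i_at was below the filter, at 9.4 to 15.2 in induced and 10.2 to 11.8 in uninduced samples.

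**Figure D2:**
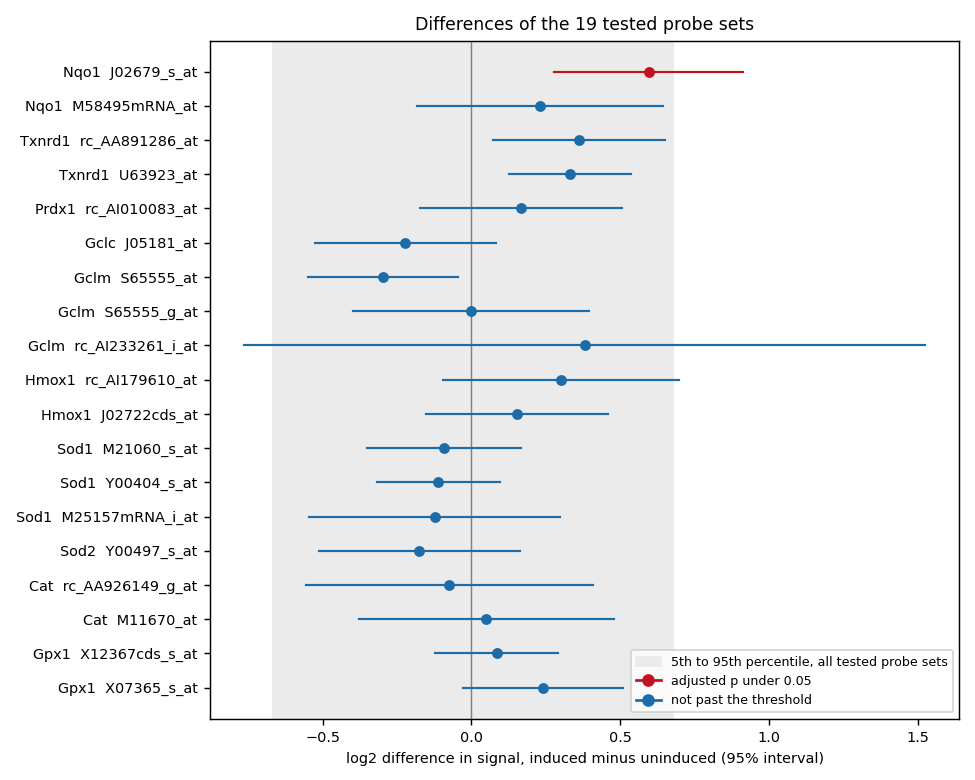
Log2 difference in signal (induced minus uninduced) of the 19 tested probe sets, with 95% intervals of the limma fit, ordered by gene. The grey band spans the 5th to the 95th percentile of all 6129 differences (-0.67 to 0.68). Nqo1 J02679_s_at, at 0.60, is the member past the adjusted threshold, and every member's difference lies inside the band.

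The 95% interval lay within 2-fold in either direction for 18 of the 19 probe sets, the exception being Gclm rc_AI233261_i_at, and within 1.5-fold for 14. Both counts include the tested Cat probe sets, whose signals were at the level of the background controls, so their intervals say little about that transcript. Gclm S65555_g_at, which did not lie well above those controls, is also in both counts. The fit's standard errors had a median of 0.15 over the members and 0.20 over all tested probe sets. Across all 8 samples the coefficient of variation of a member ran from 8.54% (Gpx1 X12367cds_s_at) to 43.3% (Gclm rc_AI233261_i_at). None of the 11 pairs of probe sets of 1 gene passed the test of a difference in response (adjusted p from 0.786 to 0.971 by exact permutation, where the smallest unadjusted p the design allows is 0.0286). A single pair at that smallest p would have an adjusted p of 0.314, and 7 pairs would have to reach it for any to pass, so the absence of a call says little about whether the responses differ. Uninduced replicate 4 was the highest or lowest of its group in 15 of the 19 probe sets (78.9%), and in 59.0% of all tested probe sets. The corresponding count was 13 for uninduced replicate 1 (68.4%, against 51.5% of all), 7 for replicate 3 and 3 for replicate 2. Several of the 19 probe sets read the same gene, so these counts are not independent.

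Genes that work with these enzymes were read from 8 lists, with the probe set of highest mean signal standing for each gene. Of 78 measured genes 1 fell, none rose and 77 were not called (1.28% called, against 7.06% of all tested probe sets), and their median log2 difference was 0.02. Counting every probe set of these genes, 5 of 131 passed (3.82%), 2 each for Idh2 and Prdx6 and 1 for Txnip. The signals of the groups did not overlap for 10 of the 78 genes (12.8%), near the 13.6% of all tested probe sets. Some of the uncalled brightest probe sets described below passed in 1 or 2 of the 18 alternatives. They were those of Txnl1, Alad, Urod, Mt3, P4hb, Nos3, Txnip and Prdx6.

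Idh2 encodes the mitochondrial isocitrate dehydrogenase that makes NADPH, and it fell on both of its probe sets. rc_AA891785_g_at read 2126.3, 2177.2, 2001.9 and 1415.9 in induced samples, against 2988.3, 3581.8, 3258.9 and 3106.1 in uninduced samples. rc_AA891785_at read 1393.4, 1345.2, 1401 and 1149.2 in induced samples, against 2111.9, 1879.8, 2127.6 and 1977.8 in uninduced samples. All induced samples lay below all uninduced ones on both. The log2 differences were -0.76 ± 0.13 (limma adjusted p = 0.0039) and -0.61 ± 0.10 (adjusted p = 0.0020), and each passed in all 8 fits that left out 1 sample. Median centring ended both calls (adjusted p = 0.102 and 0.0941). Idh2 was 1 of 8 measured genes of NADPH supply; the other 7 were not called, and the list's median was -0.18. Mthfd1, of folate metabolism, differed by -0.44 ± 0.17 (adjusted p = 0.181) and Idh1, the cytosolic isocitrate dehydrogenase, by 0.25 ± 0.12 (adjusted p = 0.331).

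None of the 7 measured genes of the thioredoxin and peroxiredoxin system passed on its brightest probe set (median -0.04, and -0.083 when all probe sets of a gene were averaged), and 3 other probe sets of that list did. Txnip encodes a protein that binds and inhibits thioredoxin. Its probe set rc_AI237654_at read 155.1, 212.1, 186.8 and 167.6 in induced samples, against 358.8, 332.2, 319.1 and 393.4 in uninduced samples, and fell by 0.94 on the log2 scale (SE 0.16, limma adjusted p = 0.0035). The groups were well apart, and the call held in all 18 alternatives. This probe set was singled out after its values were seen. Its induced signals were not far above the background controls of those arrays (95th percentile 102 to 137). The brighter Txnip probe set differed by -0.46 ± 0.16 and did not pass (adjusted p = 0.119). Txnl1, a thioredoxin-like protein, differed by 0.49 ± 0.14 (adjusted p = 0.0617).

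Prdx6 encodes a peroxiredoxin that uses glutathione and also has phospholipase activity; it was singled out after its values were seen. AF014009_at read 793.4, 872.3, 750.6 and 1123 in induced samples, against 573.7, 528.8, 464 and 518 in uninduced samples, and rose by 0.74 ± 0.14 (limma adjusted p = 0.0066). Y17295cds_s_at read 730.2, 637, 652.1 and 654.3 in induced samples, against 388.5, 471.2, 366 and 538.1 in uninduced samples, and rose by 0.61 ± 0.14 (adjusted p = 0.0207). Neither overlapped between the groups. The first passed in all 8 fits without 1 sample and the second in 5 (not without induced replicate 1 or uninduced replicates 1 or 3, highest adjusted p 0.0685). Without replicate 2 of both groups neither passed (adjusted p = 0.0565 and 0.0909), and the second also missed with median centring (0.0622) and without the intensity trend (0.0573). The brightest Prdx6 probe set differed by 0.45 ± 0.18 in the same direction and did not pass (adjusted p = 0.204).

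The glutathione list had 15 measured genes, none of them called, at a median of -0.06 (-0.038 when all probe sets of a gene were averaged). Gss, glutathione synthetase, which completes the tripeptide, differed by 0.38 ± 0.11 (limma adjusted p = 0.0737), and its other probe set by 0.83 ± 0.24 (adjusted p = 0.0608). Slc7a5, an amino acid transporter subunit, differed by -0.26 ± 0.11 (adjusted p = 0.220). Of 14 haem and iron genes none was called (median 0.08). Alad and Urod, which encode enzymes of haem synthesis, differed by -0.51 ± 0.15 and -0.42 ± 0.13 (adjusted p = 0.0622 and 0.0711), and neither overlapped between the groups. Alas2 and Alas1, also of haem synthesis and named here for their opposite direction, did not overlap either. They differed by 0.42 ± 0.14 and 0.33 ± 0.18 (adjusted p = 0.119 and 0.370). Over the 14 haem and iron genes 10 differences were above 0 and 4 below.

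The metallothionein list held 1 measured gene, Mt3, at -0.49 ± 0.15 (limma adjusted p = 0.0711). None of 7 NRF2 regulators was called (median 0.09, and 0.18 when all probe sets of a gene were averaged). Prkcd, a protein kinase C form, differed by 0.26 ± 0.13 and Mafk, a small Maf partner of NRF2, by 0.24 ± 0.12 (adjusted p = 0.327 and 0.363); the other Prkcd probe set differed by 0.46 ± 0.13 (adjusted p = 0.0634). Nor was any of 18 genes of carbonyl and quinone detoxification (median 0.05), where Ephx1, the microsomal epoxide hydrolase, differed by -0.53 ± 0.18 and Mgst1, a microsomal glutathione transferase, by -0.22 ± 0.08 (adjusted p = 0.108 and 0.140). The list of sources of reactive oxygen had 8 measured genes, none of them called (median 0.18, and 0.049 when all probe sets of a gene were averaged). It also counted Sod3, a superoxide dismutase and so an enzyme that removes superoxide. The Sod3 difference of 0.79 ± 0.36 (adjusted p = 0.285) was the highest of the list and enters its median. Its signal exceeded the background controls on 1 of the 8 arrays. P4hb, protein disulfide isomerase, differed by 0.33 ± 0.10 (adjusted p = 0.0717) with its other probe sets at 0.10 and 0.58 (adjusted p = 0.755 and 0.0845). Nos3, the endothelial nitric oxide synthase, differed by 0.76 ± 0.33 on its brightest probe set (adjusted p = 0.248, and 0.0388 without induced replicate 1, with a difference of 1.08). Its other 4 probe sets lay between -0.39 and 0.05, 3 of them below 0, and none passed.

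**Figure D3:**
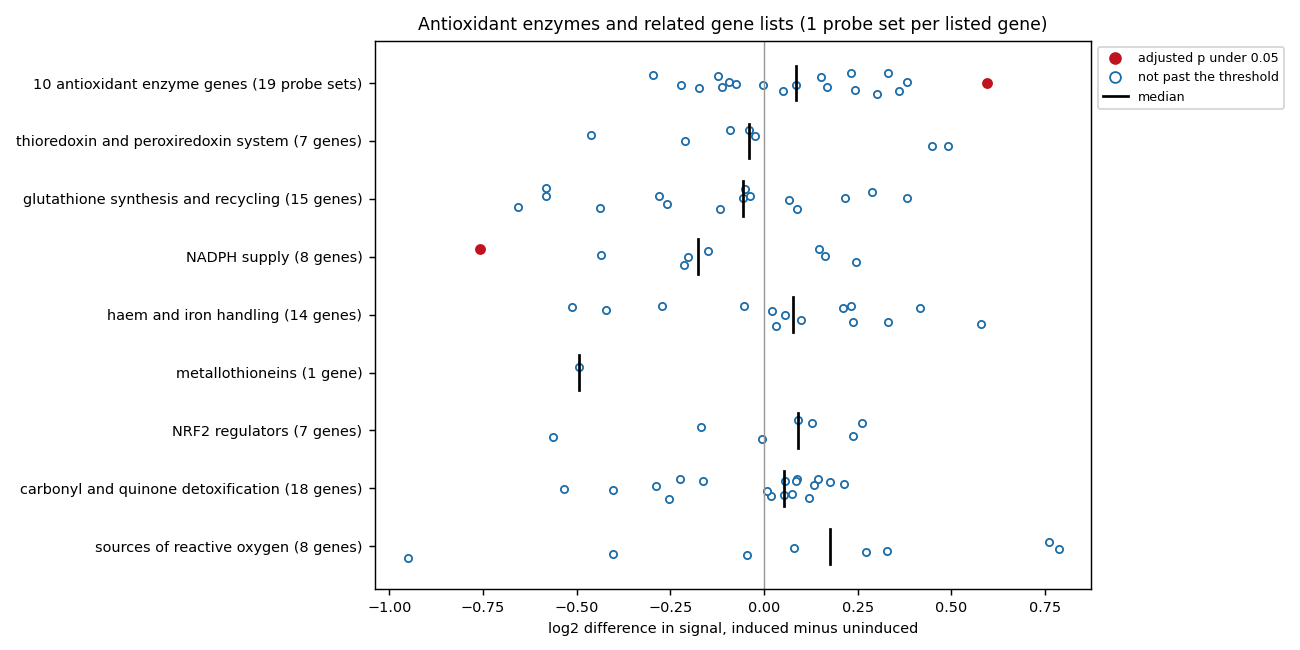
Log2 difference in signal (induced minus uninduced) of the 19 tested probe sets of the 10 antioxidant enzyme genes (top row) and of 78 genes in 8 related lists, each gene by its brightest probe set. Filled points passed the limma test (Nqo1 in the top row at 0.60, Idh2 among NADPH genes at -0.76), open points did not, and bars mark medians, which lie between -0.49 and 0.18.

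**Figure D4:**
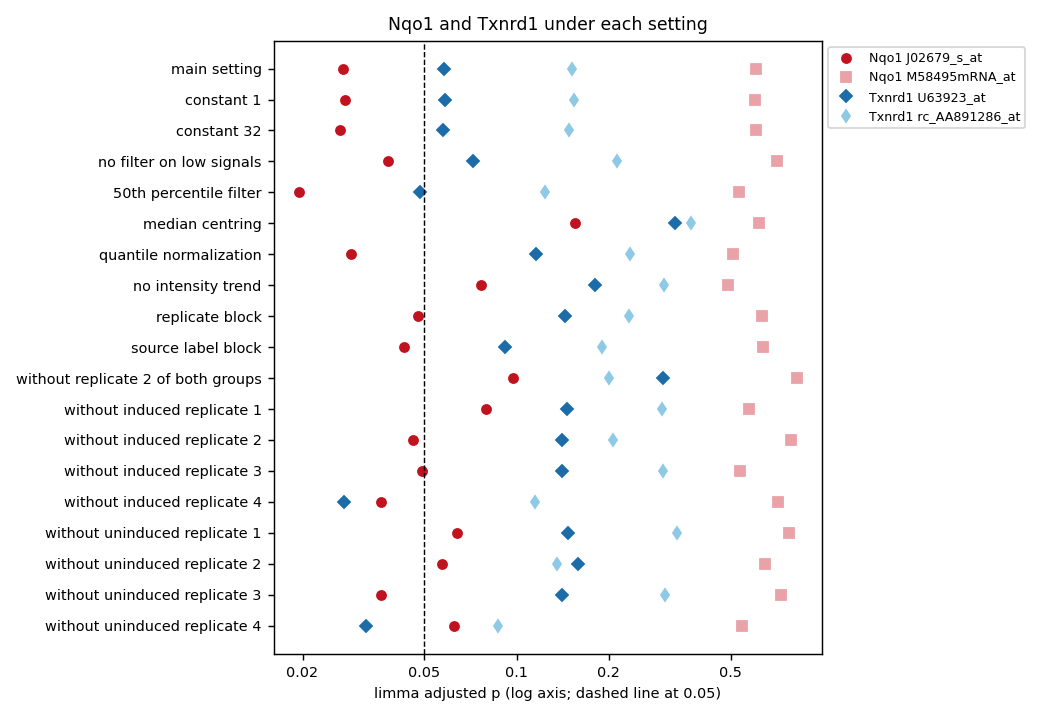
Limma adjusted p (log axis) of the Nqo1 and Txnrd1 probe sets under the main setting and 18 alternatives, with a dashed line at 0.05. Nqo1 J02679_s_at lies left of the line in 11 of the 18 alternatives and Txnrd1 U63923_at in 3, while the second probe sets of both genes lie right of it throughout.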

How the data were processed

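The deposited values are linear intensities, with 1 number for each probe set on each array. With 2% of values cut at each end, array means lay between 500.8 and 500.9, so scaling to a common level preceded deposit; the software used is unstated in the labels. Detection calls were not part of the values, and for arrays their number limits the precision. Of the 8799 probe sets the annotation table gave 1 symbol for 7018, several for 308 and none for 1473, and all 10 member genes matched a RefSeq symbol through their gene identifier.

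A constant of 7 (the 10th percentile over the whole table, rounded) was added before taking log2. Left out were 59 control probe sets and 2611 others with a mean signal under 36.0, the 30th percentile, leaving 6129. Induced minus uninduced differences were fitted over all of them with limma 3.58.1 under R 4.3.3, using lmFit and then eBayes with its intensity trend (6 residual and 5.77 prior degrees of freedom), with Benjamini-Hochberg adjustment over the 6129 and a threshold of 0.05. Errors of log2 differences are standard errors, errors of signals SDs, and folds include the added 7. Pairs of probe sets of a gene were compared by an exact permutation test over the 8 samples (scipy 1.17.1).

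The members and lists were chosen with earlier results of these data known. The rule for named genes took all member probe sets and, from each list, the genes called and the 2 others with the lowest p. Alternatives changed the constant (1 or 32), the filter (none, or the 50th percentile), the scaling (median centring or quantile), the intensity trend, a block for replicate number or for the wording of the source label, and the samples.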

Additional observations from a re-analysis of the deposited data

Results flagged for a closer look

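In 5 of 70 groups of 4 samples examined for the members and named genes, 1 sample lay apart from the other 3, with a gap to its nearest neighbour past Dixon's 95% critical value on the log2 scale. Chance gives such a gap in about 1 in 20 groups. Nqo1 J02679_s_at read 904 in induced replicate 1, against 662.5 to 684.2 in the other induced samples. Hmox1 J02722cds_at read 337.4 in uninduced replicate 4, against 457 to 472.4 in the other uninduced samples. Cat rc_AA926149_g_at read 170.3 in induced replicate 4, against 128.6 to 130.7 in the others of its group, and Cat M11670_at read 128.4 in uninduced replicate 4, against 142.2 to 145. Gpx1 X12367cds_s_at read 4631.7 in induced replicate 3, against 5691.1 to 5792.1 in the other induced samples.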

How the results depend on the processing

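The probe sets called over the whole table numbered 433 (251 higher and 182 lower, 58.0% higher), 230 with median centring (167 higher and 63 lower, 72.6% higher), 279 without the intensity trend, 221 without replicate 2 of both groups, and 313 to 408 without 1 sample. Members called numbered 1; 2 with the 50th percentile filter, 0 with median centring, 0 without the intensity trend, 0 without replicate 2 of both groups, and 0 to 2 without 1 sample. Of listed genes 1 was called; 5 with the 50th percentile filter, 0 with median centring and 1 to 3 without 1 sample. The cause was not tested. Nqo1 J02679_s_at kept its sign in all 18 alternatives, at 0.49 to 0.66, with an adjusted p of 0.0195 to 0.155. Gclm S65555_g_at turned to 0.035 with median centring and 0.0066 with quantile normalization. Without 1 sample it ranged from -0.088 to 0.11, Gclm rc_AI233261_i_at from -0.17 to 0.72, Sod1 M25157mRNA_i_at from -0.33 to 0.034, Cat rc_AA926149_g_at from -0.17 to 0.029 and Cat M11670_at from -0.026 to 0.12. The difference in response between probe sets of a gene, given as first minus second, changed sign without 1 sample for several pairs. These were Gclm S65555_g_at and rc_AI233261_i_at (-0.62 to 0.18), Txnrd1 rc_AA891286_at and U63923_at (-0.054 to 0.11) and Cat rc_AA926149_g_at and M11670_at (-0.23 to 0.018). For Sod1 they were M21060_s_at and Y00404_s_at (-0.071 to 0.12), M21060_s_at and M25157mRNA_i_at (-0.18 to 0.29), and Y00404_s_at and M25157mRNA_i_at (-0.13 to 0.17). Deviations from the group means correlated at -0.14 to 0.19 between same-numbered samples, and at -0.21 to 0.20 between the others. Such deviations cancel within each group, so these correlations cannot decide whether the numbers pair samples. With the replicate number as a block 367 probe sets were called and Nqo1 J02679_s_at passed (limma adjusted p = 0.0476). Low signals of Cat, of Nqo1 M58495mRNA_at and of the Gclm probe sets other than S65555_at limit what can be read from them.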
